A study of Macaca mulatta with 17 samples.

Results

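The insulin-like growth factor (IGF) axis was followed in fetal rhesus macaque uterus through 10 genes that encode its secreted ligands (IGF1, IGF2), its receptors (IGF1R, IGF2R) and the binding proteins IGFBP1 to IGFBP6. Members were found by matching the gene description of each probe on the array. All 10 were matched, with 1 probe each, among 20217 probes that carry 16457 distinct gene names. RNA from individual uteri had been hybridized to 1-color rhesus macaque expression arrays, and 17 arrays were examined. The groups were GD100 control (n = 5), GD100 BPA (n = 5), GD165 control (n = 4) and GD165 BPA (n = 3), where GD is the gestational day at delivery. Dams of the BPA groups ate fruit carrying deuterated bisphenol A, an estrogenic building block of polycarbonate and epoxy resins, at 400 µg per kg each day. Control dams received ethanol vehicle in the same way. Treatment began on day 50 for GD100 fetuses, which were delivered by cesarean section, and on day 100 for GD165 fetuses, which were delivered vaginally. All fetuses were female, each array held 1 uterus, and stillborn fetuses had been left out. The age of the fetus, the mode of delivery and the window of treatment therefore changed together and cannot be told apart. The BPA and control groups of an age shared all of these.

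IGF1 and IGF2 are secreted peptides that drive growth mainly through IGF1R, a tyrosine kinase receptor that signals to the PI3K and MAPK cascades. IGF2R carries no kinase and removes IGF2 from the cell surface to lysosomes. The binding proteins hold the ligands in the circulation and in tissue and set how much reaches the receptors. IGFBP6 differs from the other members of its family in its strong preference for IGF2, and in the uterus IGF1 is known as a stromal mediator of the response to estrogen.

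Each value rests on a probe of 60 bases spotted 2 times on every array. The probes for the members on which the results turn are identified here by their first 30 bases, as the scanner files list them, so that the transcript measured can be traced. Nothing is marked within them.
IGFBP6: ccccatgggccccctcacccctgggccttt
IGF1: aatttcccctgctactttgaaaccagaaaa
IGF2: tgccccgcctccccgaaacaggctactctc
IGFBP1: aatcaaagctacctgtggtgatgttgccac
The IGF2 probe is described as similar to the insulin-like growth factor II precursor and does not carry the gene symbol. Separate probes for an IGF2 antisense transcript and for an IGF2-associated protein were not counted as IGF2. In NCBI RefSeq's rhesus macaque annotation (T2T-MMU8v2.0), IGFBP1 and IGFBP3 are immediate neighbors, and so are IGFBP2 and IGFBP5.

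Signals are given as log2 of the processed Cy3 signal after scaling each array to a common 75th percentile, so that a step of 1 is a doubling, and a signal can be compared between groups for the same probe but not between genes. All 10 probes were well above background on all 17 arrays, and none was saturated. On a single array, 83.8% to 89.0% of all spots exceeded background in this sense. The SD between the 2 spots of a probe on 1 array was 0.030 for IGF2 and at most 0.11 (IGF1R), whereas the SD between animals within a group ranged from 0.11 (IGFBP2) to 0.76 (IGFBP1). For every member, spots differed less than animals did, and the number of animals set the precision. Array replicates are separate animals.

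**Figure D1:**
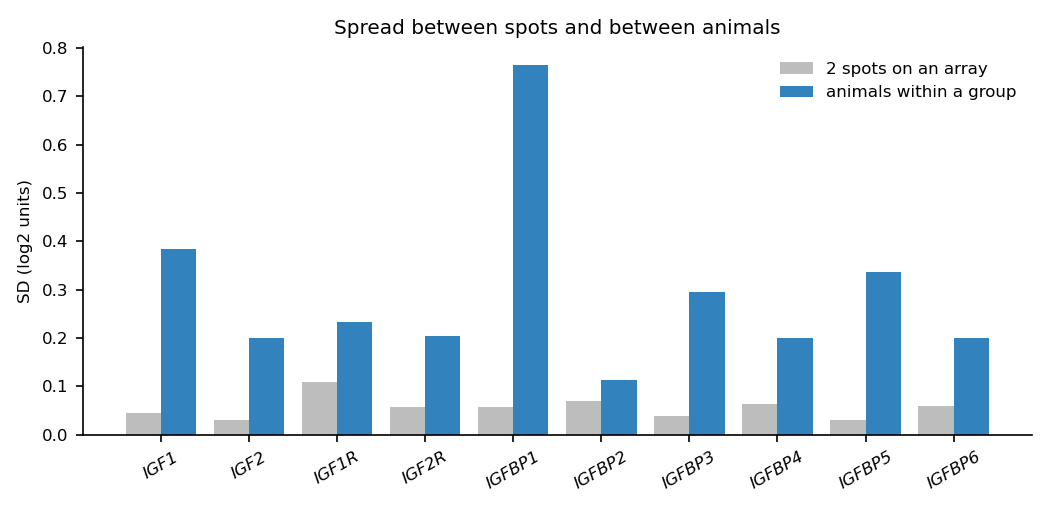
Standard deviation in log2 units of the signal of each of the 10 genes, between the 2 spots of a probe on an array (gray) and between animals within a group, pooled over the 4 groups (blue). The bar for animals is the taller one for every gene, and IGFBP1 has the widest spread between animals, 0.76.

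**Figure D2:**
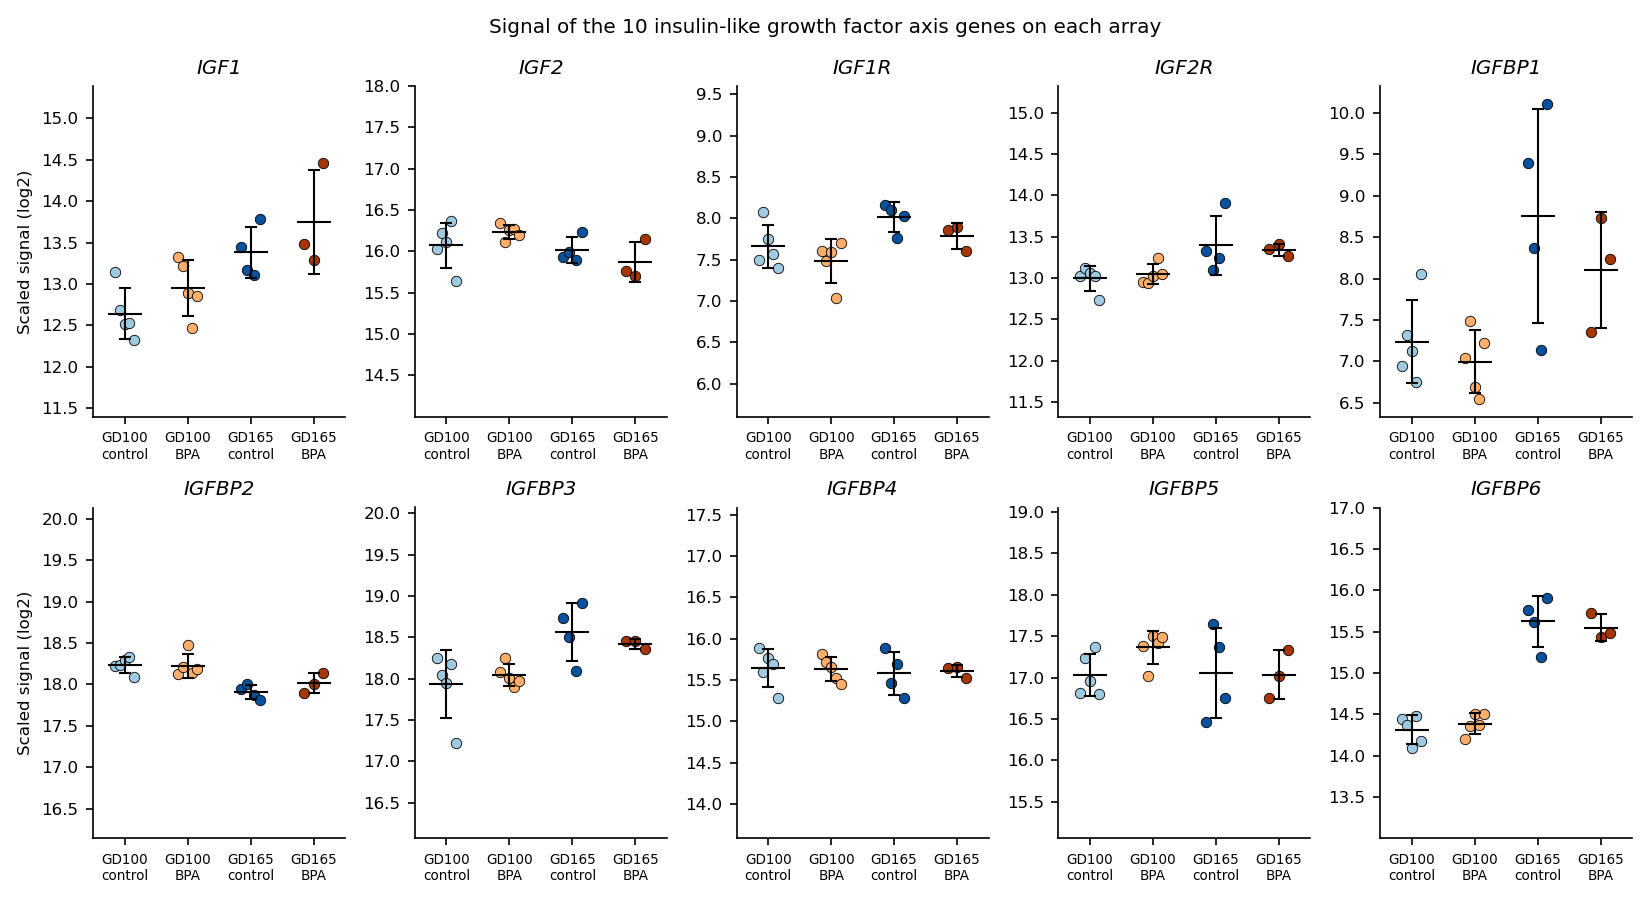
Scaled signal (log2) of each gene on each of the 17 arrays, with 1 point per animal and the group mean ± SD in black. Each panel spans 4 log2 units around its own midpoint, so spreads but not heights may be compared between panels; the IGFBP6 points of both GD165 groups lie above all GD100 points.

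One member, IGFBP6, differed between the ages past the threshold (adjusted p under 0.01, limma with Benjamini-Hochberg adjustment over all probes), and it rose in control and BPA-exposed uteri alike. In the GD100 controls its signals were 14.45, 14.38, 14.09, 14.48 and 14.17. In the GD165 controls they were 15.77, 15.62, 15.20 and 15.91, all higher than any GD100 control. The rise was 1.31 on the log2 scale (SE 0.13, limma adjusted p = 1.86e-05), or 2.48-fold (95% confidence interval 2.03 to 3.02).

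The BPA-exposed uteri, which share no animal with the controls, gave a second measurement of the same step. IGFBP6 signals were 14.20, 14.36, 14.50, 14.38 and 14.50 at GD100. They were 15.73, 15.43 and 15.48 at GD165, and again the ages did not overlap. This rise was 1.16 (SE 0.15, limma adjusted p = 1.53e-04), or 2.24-fold (1.80 to 2.78). The difference between the 2 rises was -0.15 (95% interval -0.57 to 0.28) and did not pass the test (limma adjusted p = 0.908). Between animals of opposite age and like treatment on the same slide, IGFBP6 was higher at GD165 by 1.53 and 1.59 in controls on 2 slides and by 0.98 in BPA-exposed uteri on 1 slide. With slide as a fixed block the rise was 1.55 in controls and 1.18 in BPA-exposed uteri.

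The count of members called was thus 1 of 10 in controls, against 11.5% of all probes, and 1 of 10 in BPA-exposed uteri, against 9.68%. Called higher alone, the background was 6.32% and 4.82%. Both shares are near the background, so the count says nothing particular about the axis. The signals of the 2 ages did not overlap for 2 members in controls (IGFBP2 and IGFBP6), against 19.4% of all probes, and for 3 in BPA-exposed uteri (IGF2R, IGFBP3 and IGFBP6), against 27.2%. At a looser threshold of adjusted p under 0.05, 6 members passed in controls (IGF1, IGF2R, IGFBP1, IGFBP2, IGFBP3 and IGFBP6) against 21.2% of probes, and 2 passed in BPA-exposed uteri (IGF1 and IGFBP6) against 21.0%. The median log2 difference over the members was 0.38 in controls and 0.30 in BPA-exposed uteri, beside 0.00 and -0.05 over all probes.

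Of the ligands, IGF1 had higher mean signals at GD165 without passing the threshold. Its signals were 13.15, 12.69, 12.51, 12.53 and 12.32 in GD100 controls and 13.45, 13.17, 13.11 and 13.79 in GD165 controls. GD100 control replicate 1 stood within the GD165 range. The difference was 0.74 (SE 0.25, limma adjusted p = 0.0430), or 1.67-fold (1.16 to 2.40).

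In BPA-exposed uteri IGF1 signals were 13.33, 13.21, 12.88, 12.46 and 12.86 at GD100 and 13.48, 13.29 and 14.46 at GD165. The last of these was the highest IGF1 signal of all 17 arrays. The difference was 0.80 (SE 0.27, limma adjusted p = 0.0458), and without that animal, GD165 BPA replicate 5, it was 0.44 (limma adjusted p = 0.244). This animal also stood apart from GD165 BPA replicates 3 and 4 in summed marker signals, with 108500 against 24200 and 23640 for skeletal muscle, 1257000 against 503300 and 362800 for erythroid cells, and 94530 against 47820 and 62370 for the cell cycle. Their part in the IGF1 difference was not tested.

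IGF2 did not pass the test between ages in controls. Its signals were 16.03, 16.22, 16.11, 16.36 and 15.64 at GD100 and 15.93, 15.99, 15.90 and 16.24 at GD165, and the later values lay inside the range of the earlier ones. The difference was -0.06 (95% interval -0.34 to 0.23, limma adjusted p = 0.821). On the linear scale the interval ran from 0.79-fold to 1.17-fold. In BPA-exposed uteri the GD165 signals of 15.76, 15.70 and 16.15 stood against a GD100 range of 16.11 to 16.35, a difference of -0.37 (SE 0.15, limma adjusted p = 0.0881). The antisense probe of the IGF2 locus, chosen for mention after its values were seen, had means of 11.71 ± 0.12 (SD, n = 5) at GD100 and 10.90 ± 0.12 (SD, n = 4) at GD165 in controls, and fell by 0.81 (SE 0.13, limma adjusted p = 5.26e-04). In BPA-exposed uteri its means were 11.64 ± 0.13 (SD, n = 5) and 11.37 ± 0.40 (SD, n = 3), a difference of -0.27 that did not pass (limma adjusted p = 0.189), and the test of the difference between the exposure groups did not pass either (limma adjusted p = 0.537).

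Neither receptor passed the test between ages. IGF2R had a mean of 13.00 ± 0.15 (SD, n = 5) in GD100 controls and 13.39 ± 0.36 (SD, n = 4) in GD165 controls, a difference of 0.40 (SE 0.14, limma adjusted p = 0.0493). Its highest control signal, 13.91, came from GD165 control replicate 6, and without that animal the difference was 0.23. In BPA-exposed uteri the GD165 signals of 13.27 to 13.41 were all above the GD100 range of 12.94 to 13.24, yet the fitted difference of 0.30 did not pass (limma adjusted p = 0.166). In GD165 controls IGF1R had a mean of 8.01 ± 0.18 (SD, n = 4) beside 7.66 ± 0.26 (SD, n = 5) at GD100. The difference was 0.35 (SE 0.15, limma adjusted p = 0.119), and the ranges overlapped at both exposures.

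Among the binding proteins other than IGFBP6, IGFBP2 came closest to the threshold in controls, with a lower signal at GD165. IGFBP2 is abundant in fetal tissues. Its signals were 18.23, 18.24, 18.30, 18.34 and 18.09 in GD100 controls and 17.95, 18.00, 17.87 and 17.81 in GD165 controls. The ages did not overlap, and the difference was small at -0.33 (SE 0.09, limma adjusted p = 0.0126), or 0.79-fold (0.70 to 0.90). In controls IGFBP2 passed without GD100 control replicate 5 (-0.37, limma adjusted p = 0.00979). It also passed without GD100 BPA replicate 3, which enters the fit through the shared spread (limma adjusted p = 0.00677). Over all fits that left out 1 animal, the limma adjusted p ran up to 0.0447. With slide as a fixed block the difference in controls was -0.22 (limma adjusted p = 0.173). With replicate number as a block it was -0.30 (limma adjusted p = 0.111). The difference was -0.21 in BPA-exposed uteri (SE 0.09, limma adjusted p = 0.128), where the ranges overlapped.

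IGFBP3 carries most circulating IGF in ternary complexes. Its signals were 18.26, 18.04, 17.95, 18.17 and 17.23 in GD100 controls and 18.73, 18.51, 18.09 and 18.91 in GD165 controls, so that GD165 control replicate 5 lay within the earlier range. The difference was 0.63 (SE 0.19, limma adjusted p = 0.0274), or 1.55-fold (1.17 to 2.05). In BPA-exposed uteri the ages did not overlap, at 17.89 to 18.25 and 18.35 to 18.46, and the difference was 0.38 (limma adjusted p = 0.208).

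IGFBP1, a binding protein of decidua and fetal liver that responds to metabolic state, had the widest spread between animals of the 10. Its signals were 6.95, 7.32, 7.13, 6.74 and 8.05 in GD100 controls and 9.40, 8.37, 7.14 and 10.11 in GD165 controls. The later animals spanned 2.97 log2 units, with replicate 5 among the GD100 values. The difference of 1.52 (SE 0.48) was larger than that of IGFBP6 but did not pass (limma adjusted p = 0.0345), and the interval ran from 1.41-fold to 5.81-fold. In BPA-exposed uteri the difference was 1.11 (SE 0.52, limma adjusted p = 0.145).

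Leaving out GD165 control replicate 5 changed whether IGFBP1 and IGFBP3 passed in controls. Without GD165 control replicate 5 the differences were 2.06 for IGFBP1 (limma adjusted p = 0.00243) and 0.79 for IGFBP3 (limma adjusted p = 0.00817), both past the threshold. Without GD165 control replicate 6 they were 1.07 and 0.51, and neither passed, as in the fit of all animals. The smallest IGFBP3 difference with 1 animal left out, 0.46, came without GD100 control replicate 5. GD165 control replicate 5 had the highest summed signal of the 12 skeletal muscle markers, 210300, against 26960 to 41140 in the other GD165 controls. GD165 control replicate 6 had the highest summed signal of the 10 squamous epithelium markers, 123300, against at most 35160 on any other array. The GD165 controls with the highest IGFBP1 signals, replicates 1 and 6, also had the highest summed signals of the 7 hepatocyte markers, 2311 and 1630, against at most 1194 on any other array. Yet GD165 control replicate 3, next in IGFBP1 at 8.37, had the lowest hepatocyte sum at GD165, 805.1. Of these markers, 1 was well above background on no array. Replicates 1 and 6 also had the highest endothelial sums of the GD165 controls, 102000 and 118700. The part of these markers in the differences was not tested.

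IGFBP4 and IGFBP5 did not pass the test with age in either exposure group. For IGFBP4 the difference was -0.07 in controls (95% interval -0.35 to 0.22) and -0.02 in BPA-exposed uteri (-0.34 to 0.29). For IGFBP5 it was 0.03 in controls (-0.43 to 0.49) and -0.33 in BPA-exposed uteri (-0.83 to 0.17). The GD165 controls were widely spread for IGFBP5, from 16.47 to 17.65.

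**Figure D3:**
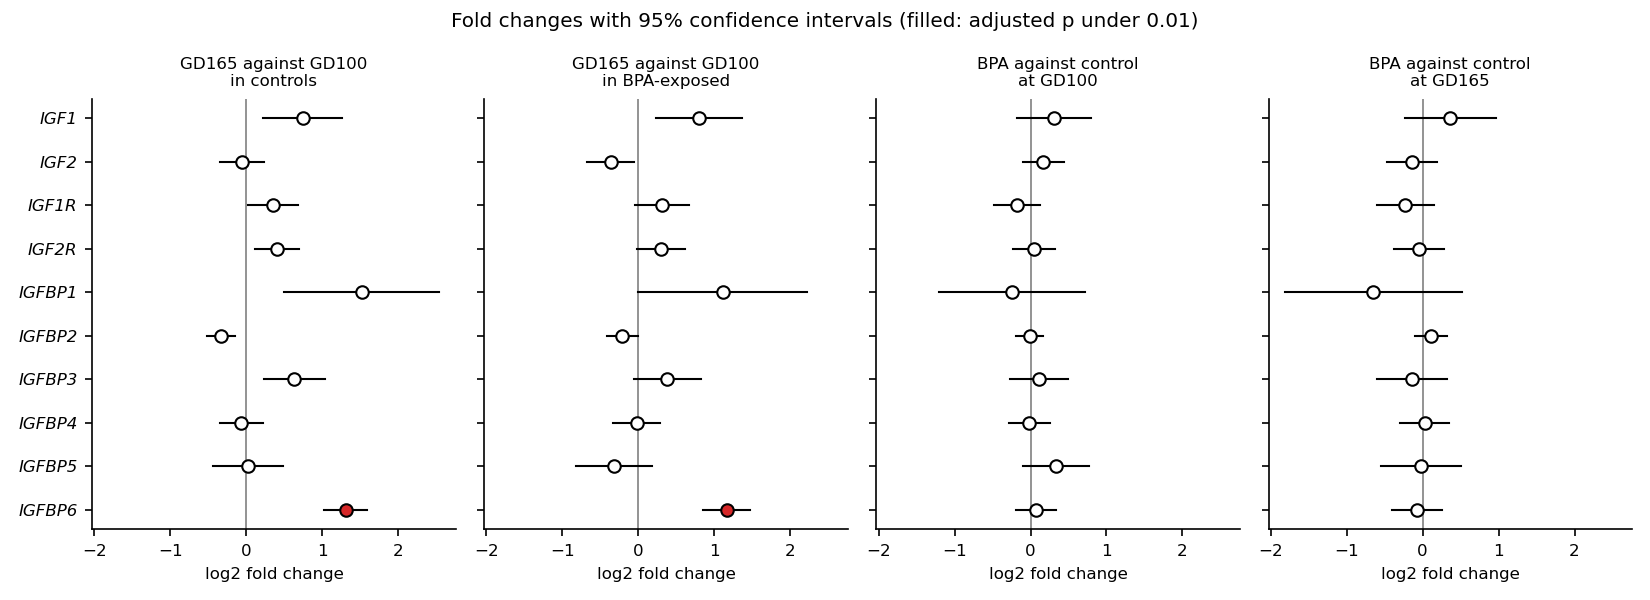
Log2 fold change (points) and 95% confidence interval (lines) of each gene from the limma fit of all 17 arrays, for the ages compared within controls and within BPA-exposed uteri and for BPA compared with control at each age. Filled points passed adjusted p under 0.01, which IGFBP6 did in both age comparisons and no gene did for BPA.

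In order of level, both GD165 means of IGFBP6 exceeded both GD100 means. The means were 14.31 ± 0.17 (SD, n = 5) in GD100 controls, 14.39 ± 0.13 (SD, n = 5) in GD100 BPA, 15.55 ± 0.16 (SD, n = 3) in GD165 BPA and 15.62 ± 0.31 (SD, n = 4) in GD165 controls. Only the step between GD100 BPA and GD165 BPA exceeded the spread of these neighbors, since the ranges of the other neighboring groups overlapped.

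No member passed the test for BPA against control at either age. At GD100, 0 of 10 members passed, beside 0.0% of all probes, and 0 of 10 had groups that did not overlap, beside 0.782% of probes. At GD165, 0 of 10 passed, again beside 0.0%, and 0 of 10 had groups that did not overlap, beside 7.31%. No member reached an unadjusted p of 0.05 in either comparison, whereas 767 and 1740 probes did. The test of whether the effect of BPA differed between the ages called 0 of 10 members and 0.0% of probes, with 0 members and 1584 probes at an unadjusted p under 0.05.

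The intervals show what these group sizes could leave unseen. For IGFBP6, BPA over control was 1.05-fold at GD100 (0.87 to 1.27) and 0.95-fold at GD165 (0.76 to 1.19). For IGF1 it was 1.24-fold (0.88 to 1.74) and 1.29-fold (0.85 to 1.94). For IGFBP2 it was 0.99-fold (0.88 to 1.12) and 1.08-fold (0.93 to 1.25). For IGFBP1 at GD165 it was 0.64-fold (0.29 to 1.43), the least precise of the 10. A change of 1.5-fold in IGFBP2 or IGFBP6 thus lay outside the interval at both ages, while for IGFBP1 a fall of that size did not.

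Around the members, 61 of 64 further pathway genes were matched to a probe, and some of them passed with age. In controls 5 passed as higher and 3 as lower; in BPA-exposed uteri 6 and 5 did. These are 13.1% and 18.0% of the 61, beside 11.5% and 9.68% of all probes. No pathway gene passed for BPA at either age. The median over these genes was -0.06 in controls and -0.07 in BPA-exposed uteri.

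HTRA1 and IGFBP7, which act on IGF outside the cell, passed as higher at GD165. HTRA1, a serine protease that cleaves binding proteins and matrix, rose by 0.94 in controls (SE 0.11, limma adjusted p = 4.09e-05) and by 0.91 in BPA-exposed uteri (limma adjusted p = 1.74e-04). It was the 1 gene of 8 called among binding protein proteases, their inhibitors and the ternary complex subunit IGFALS. That share of 12.5% is near the background. Of these 8 genes, 4 had higher and 4 lower means in controls (median 0.05). In BPA-exposed uteri 3 were higher and 5 lower (median -0.55). IGFBP7, a related protein that binds IGF weakly, rose by 0.91 in controls and 1.28 in BPA-exposed uteri (limma adjusted p = 0.00213 and 4.48e-04). It was the only call of 2 further IGF-binding proteins. The other had a lower mean in controls and a higher one in BPA-exposed uteri.

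A mixed list held regulators of the IGF2 transcript, of IGF2 promoters and of such regulators. Of its 7 measured genes, 3 fell at GD165 in controls and 4 in BPA-exposed uteri, and 0 rose past the threshold. These are 42.9% and 57.1% of the 7, a short list, beside 11.5% and 9.68% of all probes. Of the 7, 1 was well above background on only 1 GD165 control array and 1 GD100 BPA array. IGF2BP1, an oncofetal protein that binds IGF2 mRNA, was well above background on every GD100 array and on no GD165 array. Its signal was about 4.85-fold lower in controls (limma adjusted p = 1.86e-05) and about 10.4-fold lower in BPA-exposed uteri (limma adjusted p = 3.55e-06). For these folds each GD165 array took the probe's own signal or the lowest signal well above background on that array, whichever was higher. They are approximate, because the GD165 signals were not well above background. Its relative IGF2BP3 fell 2.29-fold in controls (limma adjusted p = 1.86e-05) and 2.82-fold in BPA-exposed uteri (limma adjusted p = 1.56e-05). PLAG1, a transcription factor that activates IGF2 promoters, fell by 0.64 (SE 0.10) and by 0.98 (SE 0.11). HMGA2, a chromatin factor upstream of IGF2BP2 and PLAG1, fell by 0.66 in BPA-exposed uteri and was 0.26 lower in controls (limma adjusted p = 0.00864 and 0.231). The IGF2 probe itself, as given above, did not pass in either comparison.

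Inside the cell, 3 of 22 genes of the PI3K, AKT and mTOR arm rose in controls and 4 in BPA-exposed uteri, and 0 passed as lower. The shares, 13.6% and 18.2%, stand beside the same backgrounds, and that of the controls is near it. Means at GD165 were higher for 9 and lower for 13 of the 22 in controls (median -0.03). In BPA-exposed uteri they were higher for 10 and lower for 12 (median -0.07). FOXO1, a transcription factor that AKT holds out of the nucleus, rose by 0.93 (SE 0.16) in controls and 0.82 (SE 0.17) in BPA-exposed uteri. FOXO4 rose by 0.46 and 0.54. PIK3CB, a catalytic subunit of PI3K, rose by 0.55 and 0.62. RICTOR, the defining subunit of mTOR complex 2, rose by 0.59 in BPA-exposed uteri and was 0.32 higher in controls (limma adjusted p = 0.00645 and 0.0785).

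GHR, the receptor through which growth hormone drives IGF1 in liver, fell by 0.70 in BPA-exposed uteri (limma adjusted p = 0.00551) and was 0.55 lower in controls (limma adjusted p = 0.0129). It was the only call among 4 genes of that arm. None of the 10 insulin receptor and adaptor genes passed, and the one farthest from 0 was the adaptor GRB14, at -1.58 in controls (SE 0.53, limma adjusted p = 0.0459). None of the 8 RAS and MAPK genes passed either.

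**Figure D4:**
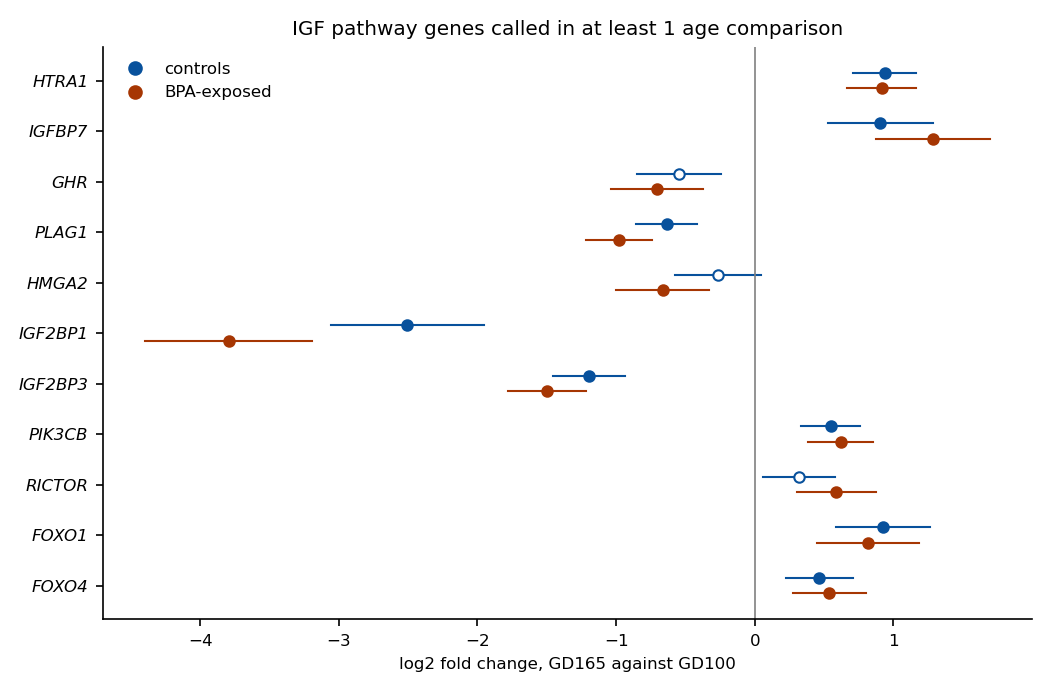
Log2 fold change at GD165 against GD100 with 95% confidence intervals, in controls (blue) and BPA-exposed uteri (brown), for the 11 pathway genes called in at least 1 of the 2; filled points passed adjusted p under 0.01. Of these called genes, those of the mixed list of IGF2 regulators lie left of 0, and HTRA1, IGFBP7 and those of the PI3K arm right of 0. Most genes of the PI3K arm were not called and are not shown. The points of IGF2BP1 rest on GD165 signals not well above background.

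All 8 uterine and Müllerian markers were well above background on at least 1 array. Their summed signals were 111100 to 128300 in GD100 controls and 89200 to 120500 in GD165 controls. By age, 1 passed as higher and 2 as lower in controls (37.5%), and 1 and 1 in BPA-exposed uteri (25.0%). Marker lists of other cell types are given for the ages in controls, GD100 first, beside 11.5% of all probes called in controls and 9.68% in BPA-exposed uteri. All 15 cell cycle markers fell in controls and 14 of 15 in BPA-exposed uteri, with summed signals of 122300 to 139500 in GD100 controls and 46150 to 63260 in GD165 controls. Leukocyte markers, of which 2 of 15 rose in controls and 2 in BPA-exposed uteri, a share near those backgrounds (13.3%), summed to 62940 to 80860 and 125800 to 162400 without overlap. Endothelial markers summed to 33680 to 60220 and 63720 to 118700, with 1 of 7 called. Columnar epithelium markers summed to 113900 to 165900 and 221800 to 273400, with 4 of 6 called. Skeletal muscle markers, of which 6 of 12 rose in controls and 2 of 12 in BPA-exposed uteri, had the largest median differences of these lists, 3.79 and 2.39, and summed to 15330 to 17180 and 26960 to 210300. Smooth muscle markers had higher means at GD165 for 10 of 10 in both exposure groups, with 4 and 2 called and medians of 0.40 and 0.37, although their sums overlapped at 1586000 to 2192000 and 1957000 to 2621000. Stromal fibroblast markers had 1 of 7 called lower in controls and 0 in BPA-exposed uteri, with sums of 908600 to 1136000 and 796600 to 1101000. Erythroid markers had 1 of 9 called higher in each exposure group, with sums of 588900 to 952700 and 634900 to 1802000. Yet 7 of the 9 had lower means at GD165 in each exposure group, with medians of -0.15 in controls and -1.59 in BPA-exposed uteri. None of the 10 squamous epithelium markers passed. Hepatocyte markers, the list for the main organ source of circulating IGF1, summed to 680.8 to 1044 and 805.1 to 2311, with 2 of 7 called. In whole tissue, more cells of a type and more RNA per cell cannot be told apart, and the part of these shifts in the IGFBP6 rise was not tested.

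Likeness of pattern was described over the 17 arrays, among 13925 genes well above background on all of them. Closest to IGFBP6 were CRYAB, UPK1B and TNFSF10, with Pearson's r of 0.97, 0.96 and 0.96. After subtracting each group's mean, r was 0.62, 0.56 and 0.54. Closest to IGFBP1 were NPC1, TBC1D1 and IRS2 (r = 0.94, 0.92 and 0.92), and with the group means removed r was still 0.91, 0.86 and 0.84. IRS2 is an adaptor of the insulin and IGF1 receptors. Its r with the group means removed pools the animals of all 4 groups and was not computed group by group. IGFBP1 was most spread in GD165 controls, with an SD of 1.29 against 0.385 to 0.70 in the other groups.

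Closest to IGF1 were MPP5, NTAN1 and PCAF (r = 0.91, 0.90 and 0.88). Closest to IGF2 were BMP1, DVL2 and LGI4 (r = 0.92, 0.91 and 0.88). IGF1R was nearest to NFKB2, ITPR1 and CDK19 (r = 0.93, 0.83 and 0.83), and IGF2R to ZA20D2, EDG7 and VEGFC (r = 0.92, 0.90 and 0.90). IGFBP2 was nearest to LOXL1, FZD2 and MAGEL2 (r = 0.92, 0.91 and 0.90), and IGFBP3 to ADRA1B, FXYD1 and SQSTM1 (r = 0.89 for each). IGFBP4 and IGFBP5 had the weakest closest matches. For IGFBP4 they were C11orf24, FLJ39378 and KCMF1 (r = 0.78, 0.72 and 0.71), and for IGFBP5 they were BBX, IPP and FUNDC1 (r = 0.84, 0.79 and 0.77). The points of each r share the arrays and their scaling, and the top 3 of so many genes are high in part by selection.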

How the data were processed

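Per the labels and the study's methods, total RNA of single uteri was labeled with Cy3 and hybridized to Agilent rhesus macaque arrays. The authors extracted the spots with Agilent Feature Extraction 9.5, and the deposited values are signal intensity per spot after its background correction. Control and outlier spots were left out, each probe's value was the mean log2 intensity over its 2 spots, and each array was scaled to its 75th percentile. Groups came from the labels. One limma fit (limma 3.58.1, R 4.3.3) of 4 group means over 17 arrays gave the 5 comparisons, with Benjamini-Hochberg adjustment over 20217 probes and a threshold of 0.01, tested on simulated data. The study's error-weighted ANOVA was not repeated, and limma with error-model weights was an alternative. Replicate numbers, shared between groups, did not pair the animals (17 arrays on 6 slides, correlations of like-numbered deviations from -0.17 to 0.12). The named genes were the 10 members, every pathway gene past the threshold, the pathway gene farthest from 0 in a list with no call (for 1 such list it is not reported here), and the 3 genes most like each member. The pathway genes GRB10, H19 and AKT2 were not matched. Members and lists were chosen with earlier results of these data known. Columns of the authors' series table matched the scanner values and were not used further. p-values rest on the spread between animals.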

Additional observations from a re-analysis of the deposited data

Results flagged for a closer look

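In 30 groups of 4 or 5 animals (10 genes in 3 groups; GD165 BPA, with 3, was not tested), 3 single animals stood far from the rest of their group by Dixon's ratio at the 95% level. Chance flags about 1 in 20 groups, or between 1 and 2 of 30. IGF2R in GD100 control replicate 5 was 12.74 against 13.03 to 13.12 in the others. IGFBP2 in GD100 BPA replicate 3 was 18.47 against 18.12 to 18.22. IGFBP5 in GD100 BPA replicate 2 was 17.02 against 17.39 to 17.50. GD100 control replicate 5 also had the lowest GD100 signals of IGF1 (12.32), IGF2 (15.64), IGFBP2 (18.09), IGFBP3 (17.23), IGFBP4 (15.28) and IGFBP5 (16.80). Its IGFBP1 signal was the highest at GD100 (8.05). Of the 17 arrays, its array had the lowest share of spots well above background, 83.8%, and it held 28 outlier spots. The part of this animal in the age differences was examined only by leaving it out.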

How the results depend on the processing

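IGFBP6 passed in both age comparisons under all 30 alternatives, at 1.21 to 1.55 in controls and 1.07 to 1.34 in BPA-exposed uteri. The alternative at an adjusted p of 0.05 reads the same fit more loosely and could not lose a call. In controls, 2 members (IGFBP2 joining IGFBP6) passed under median scaling, quantile normalization, dim probes left out, error-model weights and a trended robust prior, and 6 at an adjusted p of 0.05; leaving out 1 animal gave 1 to 3. In BPA-exposed uteri 2 passed at 0.05 and 1 otherwise. No member passed for BPA. With the replicate block 1 member passed in each age comparison. Over all probes, 2328 and 1956 were called by age; the replicate block gave 958 and 1444, slide as a fixed block 1233 and 512, the groups compared alone 1172 and 1176, no scaling 1531 in controls, and leaving out 1 animal 1512 to 2370 and 994 to 2131. Probes called for BPA were 0 or 1 throughout. Without scaling the median over all probes was 0.13 for age in BPA-exposed uteri, 0.14 for BPA at GD165 and 0.16 for the difference of the BPA effects. Of 1490 recomputed member values, 15 newly passed, some of them only through the looser threshold of 0.05. None was lost or reversed, and 73 uncalled ones changed sign, the largest of 0.30. Averaging several probes of a member could not be run, each having 1. With 3 to 5 animals a group and signals well above background, animal number limits precision.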
